A study of Rattus norvegicus with 18 samples.

Results

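The genes described here encode the thick filament motor of heart muscle: the heavy chains MYH6, MYH7 and MYH7B, the light chains MYL2, MYL3, MYL4 and MYL7, and the myosin-binding protein MYBPC3. They were chosen by name, and all 8 had a row among the 28909 of the table. Their RNA was measured in neonatal ventricular cardiomyocytes, cultured from the hearts of wild-type (wt) SD (Sprague-Dawley) rats 1 day old. After removal of fast-attaching cells and a change to low-serum medium, cultures received DMSO, the solvent, or blebbistatin for 0.5 h, with 3 RNA libraries per group. The treatment label gives 25 µM blebbistatin, while the design text also gives 0.25. Whether the replicates are separate cell isolations is not stated, so each p-value refers to the spread among these 6 libraries, which may be technical. Symbols are written as the table gives them.

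The sarcomere's thick filament is built of myosin II hexamers, in which each heavy chain carries the motor domain and binds an essential and a regulatory light chain. Blebbistatin blocks the ATPase of myosin II motors, the striated muscle forms included. In rodent ventricle the slow beta heavy chain, from MYH7, prevails before birth and the fast alpha chain, from MYH6, replaces it afterwards under thyroid hormone, so the balance between them is a common readout of cardiac maturation and stress. Light chains are also divided by chamber: MYL2 and MYL3 encode the ventricular regulatory and essential chains, MYL7 and MYL4 the atrial ones, and MYL4 is also made in the fetal ventricle.

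All 3 heavy chain genes host a microRNA, and the mature sequences are shown because their seeds are alike. They come from RefSeq (build GRCr8), and capitals mark the seed, bases 2 to 8 from the 5′ end.
rno-miR-208a-3p: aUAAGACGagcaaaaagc
rno-miR-208b-3p: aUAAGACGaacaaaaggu
rno-miR-499-5p: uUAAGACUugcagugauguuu
The first lies within MYH6 (chr15:32395568-32395585, minus strand), the second within MYH7 (chr15:32421648-32421665, minus strand) and the third within MYH7B (chr3:164570616-164570636, plus strand). The 7 seed bases of miR-208a-3p and miR-208b-3p were identical, and miR-499-5p shared 6 of 7 with each. Mature microRNAs are not analysed here. The table's row for the MIR208B gene held 0.0632 to 0.292 CPM (values scaled so that each library sums to 1000000), and the row for MIR499A was listed at 0 in all 6 libraries.

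One library, DMSO replicate 1, lay far from the rest: its position on the first principal component (42.0% of the variance) was -77.4, against -3.04 to 34.6 elsewhere. On that component DMSO replicate 3 (33.9) and blebbistatin replicate 1 (34.6) lay side by side, and the remaining libraries at -3.04 to 7.82. DMSO replicate 1 was the lowest library for 35.3% and the highest for 33.7% of the 15204 genes tested. The 11 cardiomyocyte markers were all present, with a summed level of 12087 to 15705 CPM with DMSO and 15069 to 15614 CPM with blebbistatin. The sum was lowest in DMSO replicate 1, but the list was divided there. After scaling, that library was the lowest for 7 of the 11 markers and the highest for 2. The 9 fibroblast markers summed to 33501 to 38972 and 33555 to 38028 CPM. The skeletal muscle markers (11 of 13 in the table) summed to 12.7 to 19.9 CPM with DMSO and 12.8 to 16.7 CPM with blebbistatin. MYH4 was at 6.17 to 13.0 CPM and MYH3, an embryonic heavy chain gene, at 4.22 to 7.32 CPM, while MYOD1, MYF5, PAX7 and MYH8 were listed at 0 in every library. In bulk RNA, fewer cells of a type and less RNA per cell cannot be told apart.

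No member of the group passed the test after 0.5 h of blebbistatin. Limma called 0 of 8 at a Benjamini-Hochberg adjusted p under 0.05, and 0 of 8 had an unadjusted p under 0.05. Over all 15204 genes tested the share called was 0.0197% (3 genes; 0.00658% higher and 0.0132% lower with blebbistatin), and 1.52% were at an unadjusted p under 0.05. Groups overlapped for all 8 members, and over all genes tested they did not overlap for 6.1% (3.62% higher and 2.48% lower with blebbistatin). For 8 genes, 0 is near that share. Log2 fold changes, blebbistatin over DMSO, were positive for 4 members and negative for 4 (50.7% positive over all genes tested), with a median of 0.051 beside 0.0040 over all genes. The adjusted p of every member lay between 0.991 and 0.992. These values do not show that the genes were unaffected, and the intervals below give the range of changes left possible.

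**Figure D1:**
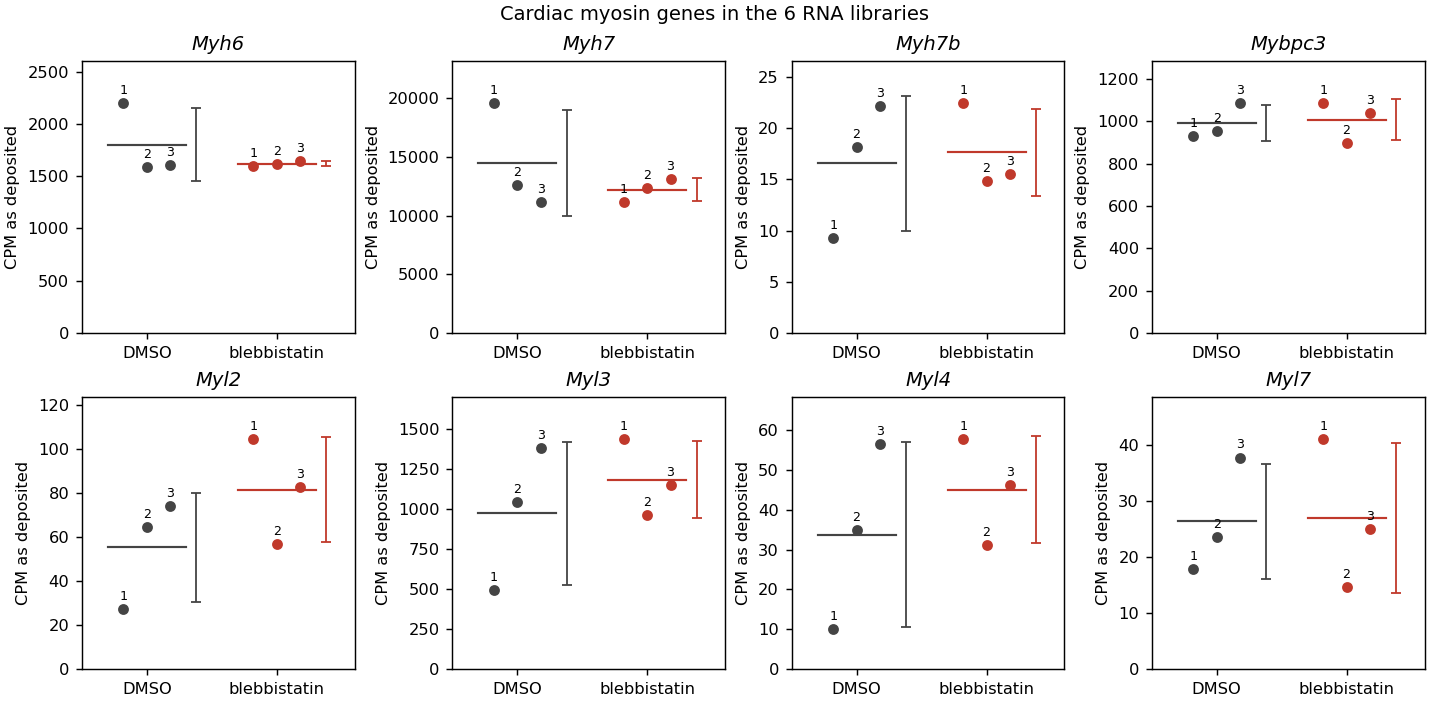
CPM as deposited of each of the 8 genes (y axis, from 0) in the 3 DMSO and 3 blebbistatin libraries. Points are libraries numbered by replicate, lines are group means and bars are SD of the 3 deposited values. For MYH6 5 libraries lie between 1589.9 and 1644 CPM and DMSO replicate 1 lies at 2203.

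MYH6, the alpha heavy chain gene, was at 2203, 1589.9 and 1603 CPM in DMSO replicates 1 to 3 and at 1599, 1617 and 1644 CPM with blebbistatin. DMSO replicate 1 alone was high, and the 5 other libraries lay within a factor of 1.03 of each other. All 3 treated libraries fell inside the DMSO range. After scaling for library composition, DMSO libraries averaged 1838 ± 465 CPM and treated ones 1599 ± 39.8 CPM (SD, n = 3 each), a log2 fold change of -0.17 ± 0.19 (SE, 95% interval -0.61 to 0.26). Without DMSO replicate 1 it was 0.03, with an interval of -0.21 to 0.26.

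MYH7, the beta heavy chain gene, was at 19644, 12596 and 11164 CPM with DMSO and at 11154, 12363 and 13105 CPM with blebbistatin. Again DMSO replicate 1 was the highest library, and the treated libraries reached from just below the lowest DMSO value to above the second. The log2 fold change was -0.24 ± 0.25 (SE, 95% interval -0.83 to 0.34), between 14844 ± 5529 and 12051 ± 1089 scaled CPM. Leaving out DMSO replicate 1 turned its sign, to 0.04 with an interval of -0.25 to 0.34.

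Reads of MYH6 and MYH7 are uncertain in one respect. These neighbouring genes encode very similar chains, RefSeq lists MYH7 also as a synonym of MYH6, and how reads shared by such copies were assigned is not given in the sources used here. A long non-coding RNA gene overlaps each of them in the RefSeq annotation, the protein-coding gene LOC120096984 also overlaps MYH7, and the strand setting of the counting is not given either.

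MYH7B, a heavy chain gene of the same class, went the other way in DMSO replicate 1. It was at 9.29, 18.2 and 22.2 CPM with DMSO and at 22.5, 14.9 and 15.6 CPM with blebbistatin. The lowest library was DMSO replicate 1, and DMSO replicate 3 and blebbistatin replicate 1 were highest and nearly equal. The log2 fold change was 0.12 ± 0.30 (SE, 95% interval -0.59 to 0.83), and -0.21 without DMSO replicate 1. MYH7B overlaps GSS and TRPC4AP in the RefSeq annotation, so some of its reads could belong to them.

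MYBPC3 encodes cardiac myosin-binding protein C, which lies along the thick filament and tunes how heads engage actin. It was at 931, 953 and 1089 CPM with DMSO and at 1089, 899 and 1038 CPM with blebbistatin. This was the steadiest member over the 6 libraries: the SD of its log2 level was 0.096, beside a median of 0.27 over all genes tested. Without DMSO replicate 1 it was 0.11, and MYH6 was steadier at 0.029. DMSO replicate 1 lay inside the range of the others. The log2 fold change was -0.01 ± 0.13 (SE, 95% interval -0.32 to 0.29), the narrowest interval of the group over all 6 libraries.

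**Figure D2:**
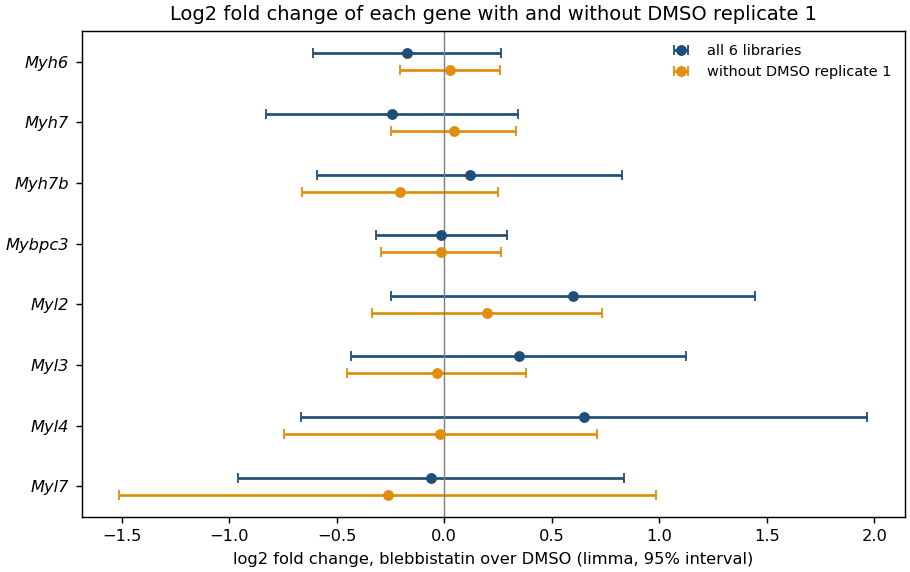
Log2 fold change of blebbistatin over DMSO (x axis) for each of the 8 genes (y axis), with 95% intervals from limma, over all 6 libraries and without DMSO replicate 1. All 16 intervals include 0, and the point for MYL4 moves from 0.65 to -0.02.

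Among regulatory light chain genes, MYL2, the ventricular form, was at 27.2, 64.3 and 74.1 CPM with DMSO and at 104.6, 56.9 and 82.7 CPM with blebbistatin. Its 2 highest libraries were treated ones and its lowest was DMSO replicate 1, but blebbistatin replicate 2 lay below DMSO replicates 2 and 3. The log2 fold change was 0.60 ± 0.36 (SE, 95% interval -0.25 to 1.45), between 55.1 ± 22.8 and 80.0 ± 22.3 scaled CPM. Its unadjusted p of 0.139 in limma was the lowest of the 8 (adjusted p = 0.991). Without DMSO replicate 1 the value was 0.20, and without DMSO replicate 3 it was 0.85. RefSeq lists MYL2 also as a synonym of MYL11, a light chain gene of fast skeletal muscle.

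MYL7, the atrial regulatory chain gene, was at 17.9, 23.5 and 37.8 CPM with DMSO and at 41.2, 14.7 and 25.1 CPM with blebbistatin. Both the highest and the lowest library were treated ones. The group means were nearly equal, at 26.5 ± 9.30 and 26.5 ± 12.7 scaled CPM, and the log2 fold change was -0.06 ± 0.38 (SE, 95% interval -0.96 to 0.84). Its sign turned without blebbistatin replicate 2, to 0.30, and without DMSO replicate 3, to 0.21, and it was -0.42 without blebbistatin replicate 1 and -0.26 without DMSO replicate 1.

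Of the essential light chains, MYL3, the ventricular form, was at 496, 1044 and 1385 CPM with DMSO and at 1442, 963 and 1153 CPM with blebbistatin. Its DMSO range, with DMSO replicate 1 at the low end, enclosed 2 of the 3 treated libraries. The log2 fold change was 0.35 ± 0.33 (SE, 95% interval -0.43 to 1.13), and -0.03 without DMSO replicate 1.

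MYL4, the atrial and fetal essential chain gene, was at 10.0 CPM in DMSO replicate 1, 34.9 and 56.5 CPM in the other DMSO libraries, and 57.9, 31.2 and 46.1 CPM with blebbistatin. Over all 6 libraries no member varied more: its highest library was 5.79 times its lowest. With DMSO replicate 1 set aside the factor was 1.85, below the 2.80 of MYL7. The log2 fold change was 0.65 ± 0.56 (SE, 95% interval -0.66 to 1.97) and -0.02 without that library. MYL4 overlaps the annotated span of CDC27, so shared reads are possible.

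Most members other than MYH6 and MYH7 ordered the libraries alike, across the treatment. By CPM from highest to lowest, MYL3 and MYL4 both ran blebbistatin replicate 1, DMSO replicate 3, blebbistatin replicate 3, DMSO replicate 2, blebbistatin replicate 2 and DMSO replicate 1. MYL7 gave the same order except that the last 2 were exchanged, and MYL2 except that DMSO replicate 3 and blebbistatin replicate 3 were. MYH7B differed from MYL3 only in the exchange of DMSO replicate 2 and blebbistatin replicate 3, and MYBPC3 had the order of MYL7 by CPM but not after scaling, with a narrow range. Averaged over the 4 light chain genes, the log2 level relative to each gene's own mean was -1.02, -0.02 and 0.46 in DMSO replicates 1 to 3 and 0.63, -0.28 and 0.23 with blebbistatin. For MYH6 and MYH7 together it was 0.59, -0.09 and -0.19, then -0.20, -0.07 and -0.04, so the library with the lowest light chain mean had the highest mean of these heavy chains. Of the sarcomeric chains, MYH7B was lowest in that library too, and MYL7 was not. A division there was not particular to the sarcomeric chains. Among non-muscle and smooth muscle genes, described below, heavy chains were highest and light chains lowest in that library.

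Some other gene groups were low in DMSO replicate 1 like the light chains, and others were high there. The mean of 74 ribosomal protein genes, chosen for this after the light chain values were seen, was -0.79, -0.04 and 0.42 in DMSO replicates 1 to 3 and 0.38, -0.08 and 0.11 in the treated libraries on the same log2 scale. DMSO replicate 1 was the lowest library for 70 of the 74. The mean of the 14 thin filament genes tested followed the order of MYL3, from 0.21 in blebbistatin replicate 1 to -0.33 in DMSO replicate 1. The atrial markers, all 8 in the table, summed to 528 to 5209 CPM with DMSO, lowest in replicate 1, and to 2836 to 5373 CPM with blebbistatin. Most of that was NPPA, the atrial natriuretic peptide gene and a fetal ventricular gene, at 495, 2859 and 5168 CPM with DMSO and 5326, 2785 and 3908 CPM with blebbistatin, which is the library order of MYL3. Of the 7 atrial markers tested, DMSO replicate 1 was the lowest library for 4 and the highest for 2. Macrophage and leukocyte markers (7 of 8 in the table, none at 0 throughout) summed to 61.2 to 145 CPM with DMSO and 125 to 144 CPM with blebbistatin, lowest in DMSO replicate 1. After scaling, that library was the lowest for 5 of the 6 tested and the highest for 1. LYZ2 was at 14.5 CPM there against 54.4 to 78.3 CPM elsewhere, and CSF1R at 25.0 against 23.3 to 26.6 CPM. Red blood cell markers (5 of 9 in the table, HBE1 and HBZ at 0) summed to 28.5 to 72.0 and 26.3 to 31.1 CPM, highest in DMSO replicate 1. On the log2 scale, the means of the other thick filament genes (0.12) and of the regulators of MYH6 and MYH7 (0.31) were also highest there. Both lists are described below. The part of these differences in the light chain pattern was not tested.

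**Figure D3:**
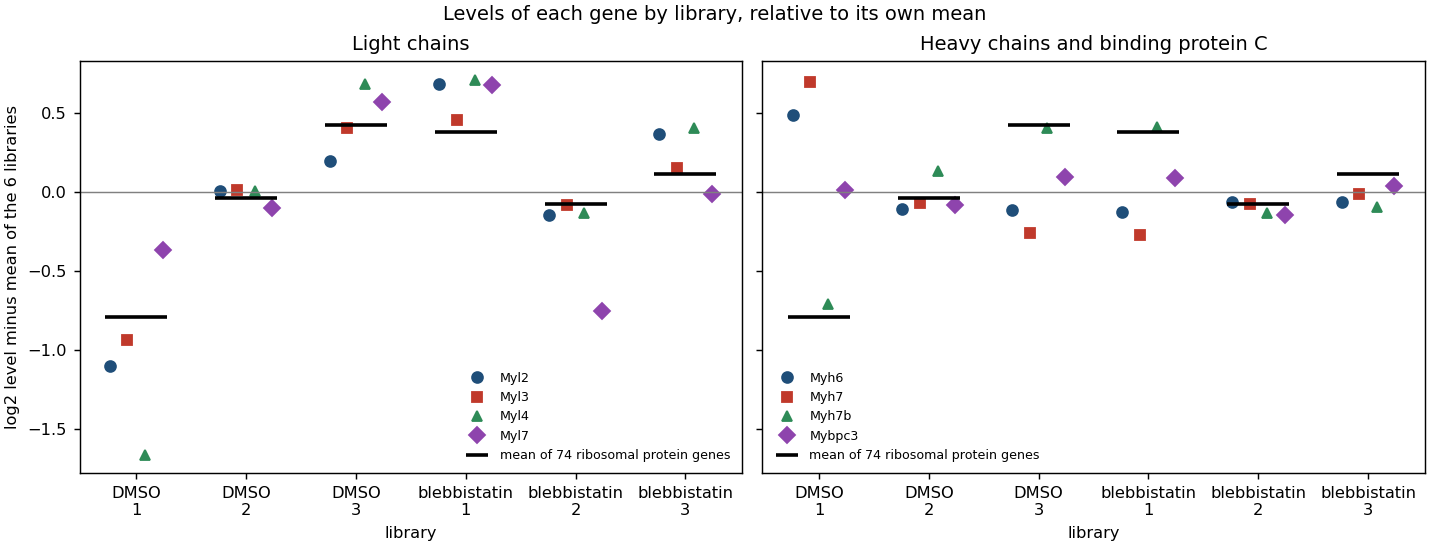
Log2 level of each gene minus its mean over the 6 libraries (y axis) by library (x axis), light chains left and heavy chains with MYBPC3 right; black bars are the mean of 74 ribosomal protein genes. Points are shifted sideways within a library for legibility, and DMSO replicate 1 shows MYL4 lowest on the left with MYH7 highest on the right.

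Ratios within a library do not depend on its scaling. They are of CPM and were not divided by transcript length, so they serve to compare libraries. The MYH7 to MYH6 ratio was 8.92, 7.92 and 6.97 with DMSO and 6.98, 7.64 and 7.97 in the treated cultures. All 3 treated values lay inside the DMSO range, but DMSO replicate 1 set the high end. With that library set aside, blebbistatin replicate 3, at 7.97, lay above the DMSO values. Means were 7.93 ± 0.98 and 7.53 ± 0.51 (SD, n = 3 each), and the log2 ratio differed by -0.07, blebbistatin minus DMSO (exact permutation test over the 6 libraries, two-sided p = 0.7, where the smallest possible is 0.1). Without DMSO replicate 1 the difference was 0.02.

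The ratio of atrial to ventricular regulatory chain, MYL7 to MYL2, was 0.656, 0.366 and 0.510 with DMSO and 0.394, 0.258 and 0.303 in the treated cultures. Only blebbistatin replicate 1 reached into the DMSO range. The log2 ratio differed by -0.66, which the exact permutation test did not separate from the spread (two-sided p = 0.2, and 0.6 adjusted over the 3 ratios compared). The difference kept its sign when each library was left out, from -0.88 to -0.46. The corresponding essential chain ratio, MYL4 to MYL3, was 0.0202, 0.0334 and 0.0408 with DMSO and 0.0402, 0.0324 and 0.0400 in the treated cultures, a log2 difference of 0.31 (exact permutation test, two-sided p = 0.7, and 0.7 adjusted). Without DMSO replicate 1 that difference was 0.02. Its DMSO range enclosed every treated value, but DMSO replicate 1 set the low end. With that library set aside, blebbistatin replicate 2, at 0.0324, lay below the DMSO values.

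**Figure D4:**
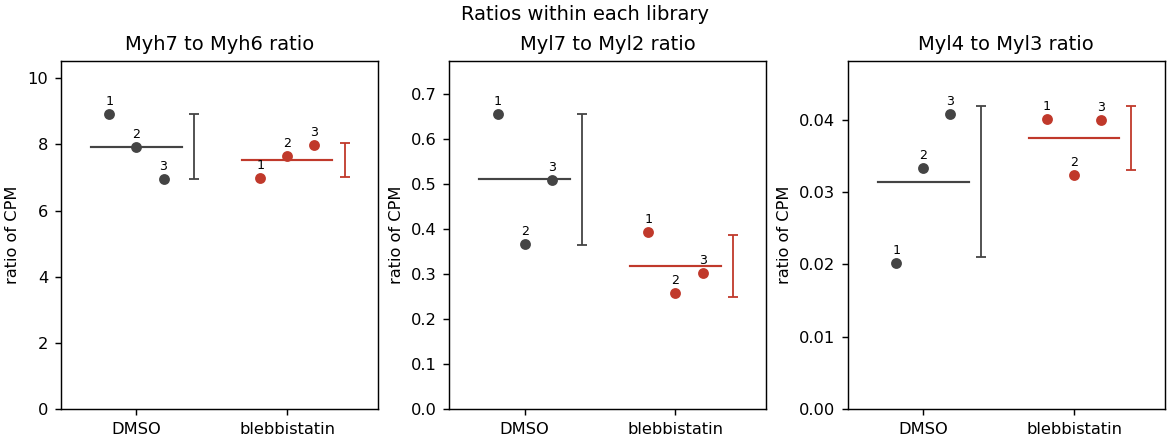
Ratio of CPM between 2 genes (y axes, from 0) in each DMSO and blebbistatin library. Points are libraries numbered by replicate, lines are means and bars are SD; DMSO replicate 1 has the highest MYH7 to MYH6 ratio, 8.92, and the lowest MYL4 to MYL3 ratio, 0.0202.

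Because MYL3 and MYL4 ordered the 6 libraries identically, the 250 bases before their RefSeq start sites are shown, a choice made after those values were seen. Both are on the plus strand of GRCr8, 5′ to 3′. Capitals mark matches to CATTCC (the M-CAT element bound by TEAD factors), the CArG box (bound by SRF), TATAAA and AATAAA.
MYL3 chr8:119616844-119617093: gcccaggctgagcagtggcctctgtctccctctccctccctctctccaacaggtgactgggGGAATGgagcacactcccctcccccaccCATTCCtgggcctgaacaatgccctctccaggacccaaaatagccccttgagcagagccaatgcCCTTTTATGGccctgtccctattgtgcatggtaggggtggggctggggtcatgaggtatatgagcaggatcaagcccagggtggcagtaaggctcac
MYL4 chr10:89975900-89976149: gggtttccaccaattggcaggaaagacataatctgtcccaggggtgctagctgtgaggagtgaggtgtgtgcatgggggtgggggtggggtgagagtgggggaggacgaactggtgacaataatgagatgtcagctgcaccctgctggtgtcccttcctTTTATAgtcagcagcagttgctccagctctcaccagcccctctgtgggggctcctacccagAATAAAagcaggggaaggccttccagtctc
Both strands were searched, and none of the marked matches overlap. The MYL3 window held CATTCC at 2 places, beginning 189 bases (on the other strand, printed as GGAATG) and 161 bases before the start site. It also held a CArG box, CCTTTTATGG, beginning 97 bases before the start site. The MYL4 window held TATAAA on the other strand, beginning 91 bases before the start, and AATAAA beginning 30 bases before it. E-boxes (CANNTG) numbered 1 in MYL3 and 3 in MYL4. Of 33465 such windows over all genes, 12.1% held CATTCC, 1.5% a CArG box, 12.9% TATAAA, 19.5% AATAAA and 65.5% CANNTG. Neither window held AGATAA or the MEF2 site, which says only that those letters are not in these windows. The RefSeq span of MYL3 begins 17 bases upstream of the start site used here. That of MYL4 begins 26417 bases upstream of its start site, so the MYL4 window lies inside the annotated gene and the 2 windows are not alike in position.

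Of 28 other genes of the thick filament, MYH1, MYH2, MYH13, MYL6B and TTN are not analysed here and 5 were below the minimum level. The other 18 were tested, and limma called 0 (0 at an unadjusted p under 0.05), with 4 positive and 14 negative log2 fold changes and a median of -0.14. Among those with the lowest p were MYBPC2, the fast skeletal binding protein gene, at -0.21 ± 0.15, MYL1 at -0.72 ± 0.70 (0 to 0.566 CPM) and MYOM2, an M-band gene, at -0.15 ± 0.14. In this list DMSO replicate 1 was the highest library for 9 of 18 genes.

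For the thin filament, which the heads pull on, limma called 0 of 14 genes tested (0 at an unadjusted p under 0.05), 12 of them with a positive log2 fold change and a median of 0.13. The troponin I genes TNNI1, the fetal form, and TNNI3, the adult cardiac form, had values of 0.30 ± 0.29 and 0.27 ± 0.26, NEBL one of -0.20 ± 0.21 and TNNT1 one of 0.40 ± 0.48. DMSO replicate 1 was the lowest library for 10 of the 14. Among 9 genes of non-muscle and smooth muscle myosin II, namely 4 heavy chains, 4 light chains and the light chain kinase gene MYLK, limma called 0 (0 at an unadjusted p under 0.05), with 4 positive, 5 negative and a median of -0.19. The values with the lowest p there were -0.32 ± 0.22 for MYH11, -0.41 ± 0.31 for MYH9, -0.24 ± 0.21 for MYLK and 0.21 ± 0.20 for MYL12B. DMSO replicate 1 was the highest library for 5 of these 9 genes, the 4 heavy chains and MYLK, and the lowest for the 4 light chains.

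Transcription factors, thyroid hormone pathway genes and cofactors known to act on MYH6 and MYH7 formed a list of 36, of which 34 were tested. Limma called 0, with 1 at an unadjusted p under 0.05, 10 positive and 24 negative log2 fold changes and a median of -0.17. The 1 gene was IRX4, a ventricular homeobox factor. It was at 16.5, 19.9 and 21.7 CPM with DMSO and at 25.2, 23.4 and 27.8 CPM with blebbistatin, so every treated library lay above every DMSO library. Its log2 fold change was 0.36 ± 0.14 (limma, adjusted p = 0.991), and 3.62% of all genes tested were separated in this direction. THRB, a thyroid hormone receptor gene, had a log2 fold change of -0.50 ± 0.30, NKX2-5 one of 0.32 ± 0.21 and SRF one of -0.18 ± 0.12. DMSO replicate 1 was the highest library for 20 of these 34 genes.

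Among 10736 other genes with a mean of at least 5 CPM and a value above 0 in every library, those whose log2 level followed MYH7 most closely over the 6 libraries were LRP4, MAPK8IP1, AARS, FBXO32 and MAST2, with Pearson r from 0.998 to 0.999. With DMSO replicate 1 set aside, r over the other 5 libraries was 0.971 to 0.989. MYL2 was followed most closely by MXD3, TPST2, CHKB, ENGASE and TMUB2, with r from 0.992 to 0.996 and from 0.966 to 0.991 over 5 libraries. These were picked as the highest of many, and the points share libraries in which DMSO replicate 1 was the extreme: FBXO32 was at 51.1 CPM there against 27.0 to 33.9 CPM elsewhere, and MXD3 at 29.0 against 44.6 to 62.0 CPM.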

How the data were processed

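The 6 RNA libraries were analysed, and the 12 chromatin and input samples are not analysed here. For RNA the authors deposited CPM, with no counts: the 6 columns each total 1000000. Per the submitters' processing notes, HISAT2 2.1.0, StringTie 1.3.4, edgeR 3.20.9 and build rn6 were used, without saying for which file; annotation and strand are not given in the sources used here. In each library 99.1 to 99.2% of values above 0 (and all 48 member values) fell within 0.02 of a multiple of 1 step, worth 0.0158 to 0.0168 CPM. A library then holds 59.6 to 63.3 times 1000000 steps, but 4 steps (253 to 426 genes) were more frequent than 3 or 5, so a step need not be 1 read and the depth in reads is not known.

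Limma 3.58.1 (R 4.3.3; trend and robust) was fitted without a block to log2(CPM / TMM factor + 0.1), for the 15204 genes with at least 0.162 CPM (10 steps) in at least 3 libraries. TMM factors (unweighted, trims 0.3 and 0.05) ran from 0.928 to 1.03. When a library was left out, the minimum was 2 libraries. Adjustment (Benjamini-Hochberg) was over all genes tested, two-sided. Fold changes are on the log2(CPM + 0.1) scale, which understates low genes. Means ± SD use CPM divided by the TMM factor, single values CPM as deposited. Ratios were compared by exact permutation in Python 3.11.15. The limma fit alone was tested on simulated data with planted changes. Members and lists were chosen with earlier results of these data known. Named genes are the 8 members, up to 4 of each list by lowest p, and the 5 most alike to MYH7 and to MYL2; 1 gene so chosen is not reported here. Alternatives covered scaling, pseudocount, filter, robust setting, library weights, threshold, replicate block and left-out libraries. Sequences are from RefSeq tables of GRCr8, used otherwise only for names and neighbours; all 8 members matched by symbol.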

Additional observations from a re-analysis of the deposited data

How the results depend on the processing

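Under 17 alternatives to the fit, 0 of 8 members were called each time; of 136 fold changes, 123 kept their direction and 13 changed sign, and none passed the threshold (lowest limma adjusted p 0.598, without DMSO replicate 3). Apart from left-out libraries, signs turned for MYBPC3 without scaling beyond CPM (0.0245) and with gene-by-gene library weights (0.0490), and for MYH7B with those weights (-0.108); the cause was not tested. The weights also brought the other members nearer 0, to 0.351 for MYL2, 0.142 for MYL3, 0.317 for MYL4, -0.0216 for MYL7, -0.0344 for MYH7 and -0.00547 for MYH6. DMSO replicate 1 then weighed 0.232 and DMSO replicate 2 2.89, and the 3 genes called over all genes became 13. Leaving out each library gave 3 to 8 genes called overall (8 without DMSO replicate 1, 7 without DMSO replicate 3, 5 without DMSO replicate 2 or blebbistatin replicate 3) and 0 for the members and for each of the 4 other lists. Log2 fold changes then ran from -0.273 to 0.0265 (MYH6), -0.432 to 0.0439 (MYH7), -0.207 to 0.349 (MYH7B), 0.199 to 0.851 (MYL2), -0.0346 to 0.637 (MYL3), -0.0178 to 1.16 (MYL4), -0.418 to 0.301 (MYL7) and -0.0631 to 0.0543 (MYBPC3). The log2 MYH7 to MYH6 ratio ran from -0.161 to 0.0174, MYL7 to MYL2 from -0.884 to -0.463 and MYL4 to MYL3 from 0.0167 to 0.526. With the replicate block 2 genes were called overall and 0 members, and the paired sign-flip tests (exact) gave p = 0.75, 0.25 and 1 for the 3 ratios, where 0.25 is the smallest possible. Deviations from the group means correlated at r = -0.289, 0.0542 and -0.0920 between same-numbered libraries, so shared numbers were not taken as pairs. Across the groups the highest r was 0.376, between DMSO replicate 3 and blebbistatin replicate 1. At this number of libraries, and with DMSO replicate 1 far from the rest, the intervals of MYL2, MYL3 and MYL4 leave changes of over 1 log2 unit possible.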
